A study of Schizosaccharomyces pombe with 24 samples.

Results

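The genes described here are 9 genes of arginine synthesis and breakdown in fission yeast (Schizosaccharomyces pombe), out of 6877 genes counted. They were picked by name, and the choice used measured values: several of them rose when nitrogen was removed while most genes of amino acid synthesis fell. The set holds arg6 (SPBC725.14), arg11 (SPAC4G9.09c), arg4 (SPBC215.08c), arg3 (SPAC4G9.10), arg12 (SPBC428.05c), arg7 (SPBC1773.14) and arg41 (SPBC1539.03c) of synthesis, and the arginase genes car1 (SPBP26C9.02c) and car3 (SPAC3H1.07). All 9 had enough reads to be tested. Because their change over time led to their choice, that change is described below without a test, and only the difference between strains is tested. The strain differences after 0 h come from the same libraries, so their p-values may not be wholly free of the choice.

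RNA was sequenced from clr4D and wt cells before and during nitrogen starvation, in 12 groups of 2 biological replicates, 24 libraries in all. The clr4D strain was 975 h+ with the clr4 gene replaced by the NatMX6 resistance marker, and the wt strain was 975 h+ with no other change named. Clr4 is the histone H3 lysine 9 methyltransferase of fission yeast, needed for heterochromatin. Both strains grew at 32 °C in Edinburgh minimal medium (EMM) with adenine, histidine, leucine, lysine and uracil, and arginine is not among the supplements named. Cells were then washed and kept in the same kind of medium without nitrogen for 1, 2, 4, 10 or 24 h, and the 0 h cells are the growing controls. No culture was washed into fresh medium with nitrogen, so loss of nitrogen, the transfer and elapsed time cannot be told apart.

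Arginine is built from glutamate. An acetyl group is added, the molecule is phosphorylated, reduced and aminated, and the acetyl group is passed on to leave ornithine. Ornithine then takes a carbamoyl group to become citrulline, aspartate is joined to it, and a lyase releases arginine and fumarate. Arginase splits arginine back into ornithine and urea, and urease turns urea into ammonia, so the same amino acid can be a product to be made or a store of nitrogen to be opened. Fission yeast cells of a single mating type stop dividing and become quiescent when nitrogen runs out.

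The libraries held between 637723 and 4427020 reads assigned to genes, with a median of 1436782. Levels are given as CPM, the reads of a gene relative to all gene reads of its library, with edgeR's TMM factors correcting for differences in composition. They are not divided by gene length, so levels of different genes are not compared. Reads of the clr4 feature were present in every library labelled clr4D, at 277.2 and 397 CPM at 0 h, against 89.33 to 171.6 CPM over all wt libraries. At 0 h reads of the clr4 feature were therefore higher in the strain labelled as its deletion (log2 difference 1.36 ± 0.24, SE). They were also higher at 1 h (1.89 ± 0.24) and 24 h (0.98 ± 0.21), while at 2, 4 and 10 h the differences of 0.25, 0.07 and 0.16 passed no test. Reads of a replaced gene go against the label, but where in the feature they fell was not examined. Whether the gene is intact is therefore not known, and the cells are called clr4D-labelled below. Replicate 2 of wt at 4 h had the fewest reads and a TMM factor of 0.695, the lowest of all libraries, and its ribosomal protein genes had a median log2 CPM of 9.37, against 8.18 in replicate 1. The main results at 4 h are therefore also given without it. Replicate 2 of clr4D-labelled cells at 0 h was similar, with 638879 reads and a TMM factor of 0.718. Its ribosomal median was 10.57, against 9.88 in its partner. Without that 0 h library, 1 of 45 changes of the 9 genes from 0 h turned its sign, and none moved by more than 0.26. Over all fits that left out 1 library, 8 of 360 changes turned their sign, and the largest shift was 0.63. The libraries come from whole cultures, so fewer cells of a kind and less RNA per cell cannot be told apart.

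Transcripts of cell types other than growing haploid cells moved with the strain. The 6 M-cell genes listed (pheromone genes mfm1, mfm2 and mfm3 and mating genes mam1, mam2 and mam4) summed to 7583 and 7613 CPM in clr4D-labelled cells at 4 h and to 7741 and 9329 CPM at 10 h, against 115.2 to 175.4 CPM in the wt libraries of all times. The 11 meiosis and spore genes summed to 7331 and 15300 CPM in clr4D-labelled cells at 10 h, against 174.6 and 195.7 CPM in wt cells, in which the meiotic inducer mei3 had no reads at that time. The 3 P-cell genes, which mark the labelled h+ mating type, had reads in all groups and summed to 6555 and 7053 CPM in clr4D-labelled cells at 10 h, against 769.5 and 809.5 CPM in wt cells. The part of these cells in the strain differences below was not tested.

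The first committed step is made by Arg6, acetylglutamate synthase. In the 12 clr4D-labelled libraries arg6 lay between 98.49 and 156.6 CPM, and in the 12 wt libraries between 116.4 and 182.9 CPM. Its strain difference passed the test at no time. It varied least of the 9 genes, by 0.59 on the log2 scale between the lowest and the highest of the 12 group means.

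Arg11 carries the next enzymes in a single protein, acetylglutamate kinase and acetylglutamyl-phosphate reductase. In clr4D-labelled cells arg11 had 563.4 and 499.5 CPM at 0 h, 885.4 and 945.8 at 1 h, 705.1 and 679.8 at 2 h, 498.7 and 513.4 at 4 h, 445.1 and 501.9 at 10 h, and 631.7 and 629.8 at 24 h. Wt cells had 597.4 and 477.6 CPM at 0 h, 1045 and 854 at 1 h, 866.8 and 819.9 at 2 h, 853.1 and 1326 at 4 h, 1105 and 1115 at 10 h, and 940.5 and 1014 at 24 h. Both strains were high at 1 h. The wt libraries stayed above all 0 h libraries to the end, while the clr4D-labelled ones were within or below their own 0 h range at 4 h and 10 h, and the strains did not overlap from 2 h on. At 4 h the level was 1.09 ± 0.19 lower in clr4D-labelled cells on the log2 scale (SE; edgeR quasi-likelihood test with Benjamini-Hochberg adjustment over all tested genes, adjusted p = 0.000324). At 10 h the difference was -1.23 ± 0.19 (edgeR, adjusted p = 2.21e-05), and at 24 h -0.63 ± 0.18 (edgeR, adjusted p = 0.0288).

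Arg4 is the large subunit of the carbamoyl-phosphate synthase that serves arginine. In clr4D-labelled cells arg4 had 1552 and 1298 CPM at 0 h, 1358 and 1478 at 1 h, 1186 and 1162 at 2 h, 973.1 and 1070 at 4 h, 927 and 1069 at 10 h, and 1641 and 1675 at 24 h. Wt libraries had 1703 and 1290 CPM of arg4 at 0 h, 1423 and 1315 at 1 h, 1306 and 1275 at 2 h, 1649 and 2629 at 4 h, 2097 and 2274 at 10 h, and 2317 and 2509 at 24 h. Unlike arg11, it did not stand out at 1 h in either strain: the courses parted after 2 h, downward in clr4D-labelled cells until 10 h and upward in wt cells (with library totals alone as the scaling, the clr4D-labelled change at 10 h was 0.07 in place of -0.52). The strain difference was -1.06 ± 0.21 at 4 h (edgeR, adjusted p = 0.00131) and -1.13 ± 0.21 at 10 h (edgeR, adjusted p = 0.000238). At 24 h it was -0.54 ± 0.20 and missed the threshold (edgeR, adjusted p = 0.109).

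Arg3, ornithine carbamoyltransferase, joins the carbamoyl group to ornithine. In clr4D-labelled cells arg3 had 124 and 117.8 CPM at 0 h, 94.19 and 93.68 at 1 h, 83.52 and 87.65 at 2 h, 79.4 and 81.44 at 4 h, 54.17 and 55.95 at 10 h, and 71.81 and 63.6 at 24 h. In the wt libraries arg3 had 143.5 and 132 CPM at 0 h, 139.5 and 105.3 at 1 h, 85.75 and 102.5 at 2 h, 95.85 and 108.4 at 4 h, 96.93 and 98.42 at 10 h, and 100.3 and 117.5 at 24 h. All libraries from 2 h on lay below the 0 h libraries of their strain, and the clr4D-labelled ones went lower, although with library totals alone the wt change was 0.01 at 1 h and 0.15 at 24 h. The log2 change at 10 h from 0 h was -1.15 ± 0.16 in clr4D-labelled cells and -0.50 ± 0.14 in wt cells. The strain difference passed the test at 10 h (-0.83 ± 0.15; edgeR, adjusted p = 0.000216) and at 24 h (-0.69 ± 0.13; edgeR, adjusted p = 0.000946), and did not at 4 h (-0.30 ± 0.15; edgeR, adjusted p = 0.204).

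In the RefSeq annotation used for names, arg3 and arg11 are next to each other, on opposite strands and reading away from each other. Their reads did not move together over time. The ratio of arg3 to arg11 CPM within a library was 0.0991 to 0.159 in clr4D-labelled cells after nitrogen removal, against 0.22 and 0.236 at 0 h. In wt cells it was 0.0818 to 0.133 after nitrogen removal, against 0.24 and 0.276 at 0 h. The later libraries of both strains thus lay below all 0 h libraries, with no overlap.

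Arg12, argininosuccinate synthase, joins citrulline and aspartate. In clr4D-labelled cells arg12 had 704.1 and 811.4 CPM at 0 h, 1387 and 1495 at 1 h, 1126 and 1113 at 2 h, 707.8 and 707.4 at 4 h, 536.1 and 598.1 at 10 h, and 825.8 and 814.1 at 24 h. The wt libraries held 823 and 529.2 CPM at 0 h, 1586 and 1269 at 1 h, 1209 and 1182 at 2 h, 1111 and 2148 at 4 h, 1069 and 1026 at 10 h, and 1141 and 1221 at 24 h. The early rise was of like size in both strains, with log2 changes at 1 h of 0.93 ± 0.24 in clr4D-labelled cells and 1.08 ± 0.23 in wt cells. From 2 h on the strains did not overlap, with the clr4D-labelled libraries lower. Against their own 0 h range, the clr4D-labelled libraries were within it at 4 h, below it at 10 h and just above it at 24 h. With library totals alone as the scaling, their changes from 0 h were 0.38 at 4 h and 0.19 at 10 h. The strain difference was -1.19 ± 0.23 at 4 h (edgeR, adjusted p = 0.00134) and -0.89 ± 0.23 at 10 h (edgeR, adjusted p = 0.00667), and it missed the threshold at 24 h (-0.53 ± 0.23; edgeR, adjusted p = 0.175). At 10 h the call of arg12 was lost without clr4D-labelled replicate 1 or without wt replicate 1, with a highest adjusted p of 0.0847 (edgeR). In the annotation arg12 is separated from clr4 by 1 protein-coding gene. The clr4 feature differed between strains by 1.36 ± 0.24 at 0 h and 1.89 ± 0.24 at 1 h, and arg12 by 0.16 ± 0.24 and 0.01 ± 0.23. At 2, 4, 10 and 24 h the clr4 feature differed by 0.25, 0.07, 0.16 and 0.98, and arg12 by -0.09, -1.19, -0.89 and -0.53. Whether the replaced gene bears on arg12 was not tested.

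The last step has 2 annotated argininosuccinate lyases, Arg7 and Arg41. In clr4D-labelled cells arg41 had 213.8 and 202.9 CPM at 0 h, 367.3 and 365.7 at 1 h, 362.3 and 312.7 at 2 h, 198.5 and 230 at 4 h, 192.7 and 216.7 at 10 h, and 265.4 and 272.4 at 24 h. The wt values were 247.2 and 194.4 CPM at 0 h, 428.6 and 413.4 at 1 h, 395.2 and 399.4 at 2 h, 331.7 and 309.4 at 4 h, 364.6 and 364.9 at 10 h, and 351.1 and 367.9 at 24 h. It resembled arg11 in shape: high at 1 h in both strains, then near the 0 h level at 4 h and 10 h only in clr4D-labelled cells. At 24 h both clr4D-labelled libraries lay above those of 0 h. The return to that level depended on the scaling. With library totals alone the clr4D-labelled change of arg41 was 0.48 at 4 h, 0.54 at 10 h and 0.97 at 24 h. The strain difference was -0.59 ± 0.14 at 4 h (edgeR, adjusted p = 0.00607), -0.84 ± 0.13 at 10 h (edgeR, adjusted p = 5.2e-05) and -0.42 ± 0.13 at 24 h (edgeR, adjusted p = 0.0431). The other lyase gene, arg7, lay between 43.18 and 100.9 CPM in the clr4D-labelled libraries and between 40.8 and 146.8 CPM in the wt libraries. Its strain difference was -0.70 ± 0.26 at 4 h (edgeR, adjusted p = 0.0703) and -0.49 ± 0.25 at 10 h (edgeR, adjusted p = 0.167), so it passed the test at neither time. How similar the lyase genes are in sequence, and how reads that fit both were counted, was not examined here.

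Scaling sets the baseline of these changes. With library totals alone in place of TMM the median change of all tested genes from 0 h was higher by 0.138 to 0.594 in clr4D-labelled cells and by 0.140 to 0.494 in wt cells. The change from 0 h then turned its sign in 15 of 90 cases over the 9 genes, among them arg11 in clr4D-labelled cells, at 0.37 at 4 h and 0.41 at 10 h. With the other scalings, DESeq2 size factors and the upper quartile, no change of a member moved by more than 0.09.

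**Figure D1:**
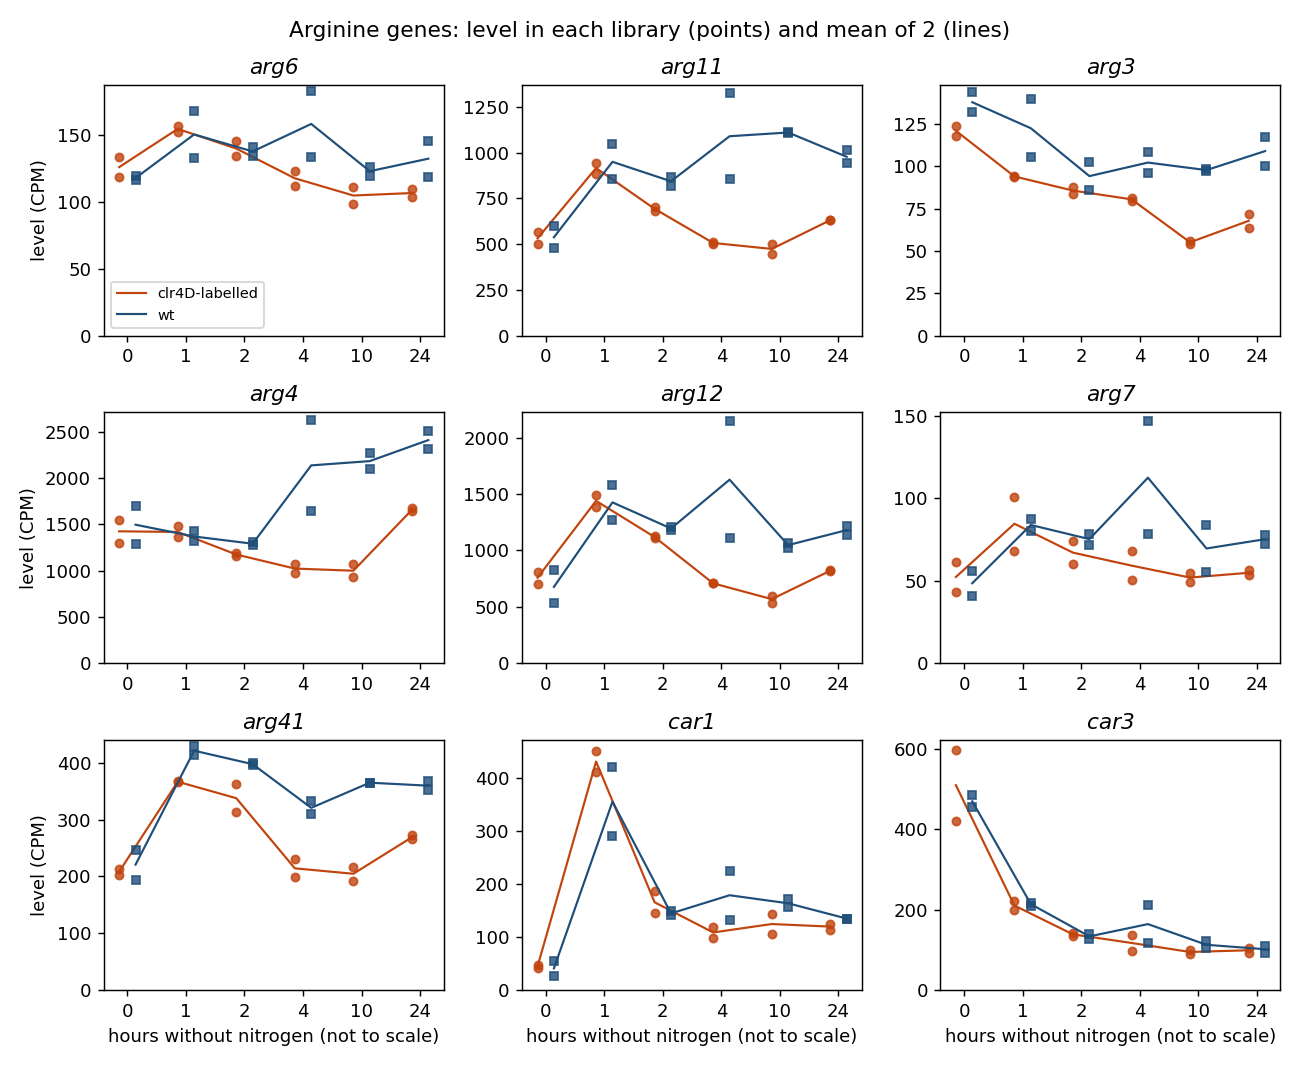
Level in CPM (vertical axis, from 0) of the 9 arginine genes at 0, 1, 2, 4, 10 and 24 h without nitrogen. Points are single libraries, lines join the means of 2 replicates, and clr4D-labelled libraries (orange circles) are drawn left of wt libraries (blue squares). For arg11, arg4, arg12 and arg41 the clr4D-labelled points lie below the wt points from 2 h on, and the gap widens between 2 h and 4 h. In both strains car1 peaks at 1 h and car3 falls.

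Arginase is encoded by car1 and car3 (named aru1 in the annotation), and their reads went opposite ways. In clr4D-labelled cells car1 had 41.79 and 47.99 CPM at 0 h, 452.1 and 411.9 at 1 h, 186.6 and 145.6 at 2 h, 120.1 and 98.21 at 4 h, 106.7 and 143.4 at 10 h, and 114.5 and 125.9 at 24 h. For wt cells the values were 55.04 and 27.6 CPM at 0 h, 421.9 and 290.5 at 1 h, 148.9 and 141.3 at 2 h, 133.1 and 225.8 at 4 h, 157 and 171.4 at 10 h, and 135.3 and 135.5 at 24 h. The log2 change at 1 h was 3.30 ± 0.28 in clr4D-labelled cells and 3.09 ± 0.27 in wt cells, and all later libraries stayed above all 0 h libraries.

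In clr4D-labelled cells car3 had 422 and 597.7 CPM at 0 h, 199.1 and 222 at 1 h, 143.2 and 134.6 at 2 h, 138.5 and 96.61 at 4 h, 89.35 and 100.9 at 10 h, and 105.8 and 92.99 at 24 h. Wt cells had 484.6 and 454.8 CPM at 0 h, 217.6 and 210.7 at 1 h, 126.9 and 140.9 at 2 h, 116.6 and 212.3 at 4 h, 122 and 104 at 10 h, and 93.48 and 110.5 at 24 h. All later libraries lay below all 0 h libraries. At 24 h the log2 change from 0 h was -2.33 ± 0.21 in clr4D-labelled cells and -2.20 ± 0.20 in wt cells.

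The balance of arginase reads therefore changed within the first hour. The ratio of car1 to car3 CPM within a library was 0.867 to 2.27 in clr4D-labelled cells from 1 h to 24 h, against 0.0803 and 0.099 at 0 h. In wt cells it was 1 to 1.94 from 1 h to 24 h, against 0.0607 and 0.114 at 0 h. The ratio itself depends on the lengths of both genes, and only its change between libraries is described. The direction of car1 (up) and car3 (down) held at every time and in both strains under the other scalings tried. Neither gene passed the test between strains at any time (for example at 4 h, car1 -0.59 ± 0.25 with edgeR adjusted p = 0.129 and car3 -0.34 ± 0.23 with edgeR adjusted p = 0.36).

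**Figure D2:**
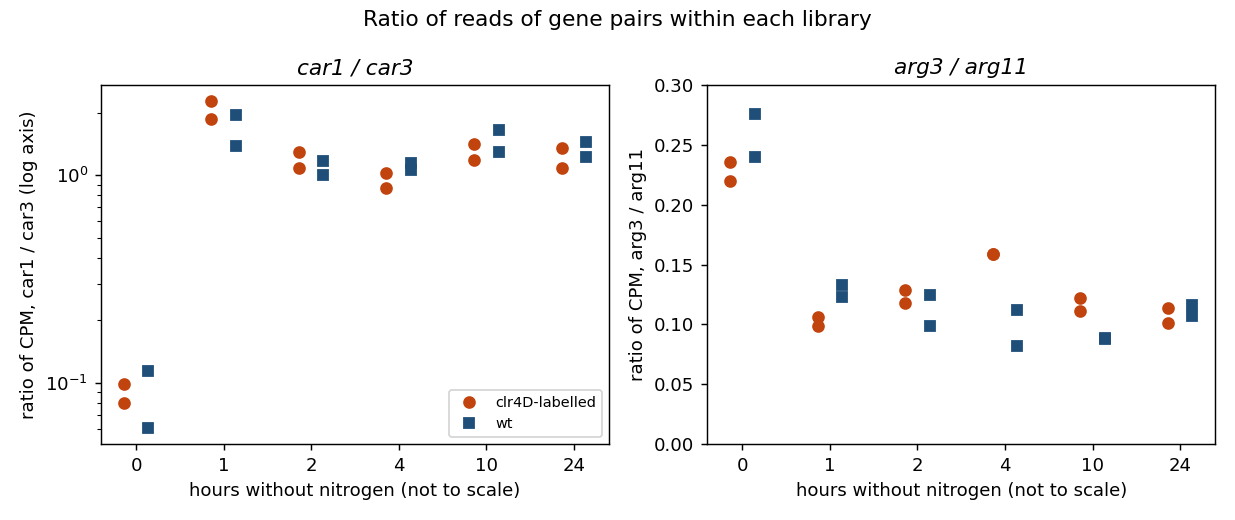
Ratio of CPM within each library, car1 over car3 on a log axis (left) and arg3 over arg11 on a linear axis (right), at 6 times, with clr4D-labelled libraries (orange circles) left of wt libraries (blue squares). The car1 to car3 ratio is at most 0.114 at 0 h and at least 0.867 later, and the arg3 to arg11 ratio is at least 0.22 at 0 h and at most 0.159 later.

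The comparison of the strains asks whether the starvation response of these genes is the same in cells labelled as lacking Clr4. Before and soon after nitrogen removal no difference passed the test. At 0, 1 and 2 h 0 of 9 genes were called by edgeR at an adjusted p under 0.05, where 0.230%, 0.671% and 1.55% of the 5664 tested genes were called in either direction. At an unadjusted edgeR p under 0.05 the counts were 0, 1 and 0, where 196, 386 and 447 of the 5664 tested genes passed. The 1 gene was arg3 at 1 h (-0.44 ± 0.15, edgeR adjusted p = 0.443). DESeq2 also called 0 of the 9 genes at these times. With so few of all tested genes called, a count of 0 of 9 says little of these genes. Both clr4D-labelled libraries lay below both wt libraries in 1, 2 and 4 of 9 genes at 0, 1 and 2 h, and above them in 0. Of the 5664 tested genes 847, 1057 and 1190 lay lower in this way. The 4 genes at 2 h were arg4, arg11, arg12 and arg41, so their libraries were already apart before 4 h.

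At 4 h 4 of 9 genes were lower in clr4D-labelled cells (arg4, arg11, arg12 and arg41) and none were higher, where 9.82% of all tested genes were lower. Both clr4D-labelled libraries lay below both wt libraries in 8 of 9 genes, which was so for 27.2% of all tested genes. Without wt replicate 2 the same 4 genes were called, with log2 differences of -0.68 for arg4, -0.74 for arg11, -0.64 for arg12 and -0.62 for arg41, and car3 moved to 0.01. Without wt replicate 1, wt at 4 h rested on replicate 2 alone, the library with the lowest TMM factor, and the arg41 difference was -0.52. The call of arg41 was lost without clr4D-labelled replicate 1 (-0.49) and with library totals as the scaling (-0.25). With the 4 libraries of that time fitted alone no gene of the 9 was called.

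At 10 h 5 of 9 genes were lower in clr4D-labelled cells (arg3, arg4, arg11, arg12 and arg41), where 23.9% of all tested genes were called, 677 of them lower and 677 higher. The clr4D-labelled libraries lay below the wt libraries in 9 of 9 genes, against 34.8% of all tested genes. The calls of arg3, arg4, arg11 and arg41 at 10 h were kept in 11 of 11 alternatives, and for arg11 the log2 difference ranged from -1.33 to -1.11. At this time the ribosomal protein genes, a sign of growth, had a median log2 CPM of 7.28 and 7.45 in clr4D-labelled cells and of 8.25 and 8.01 in wt cells. Their part in the strain difference was not tested.

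At 24 h 3 of 9 genes were lower (arg3, arg11 and arg41), where 3.16% of all tested genes were lower, and 8 of 9 genes did not overlap between strains, against 33.5% of all tested genes that lay lower without overlap. This count rested on single libraries: arg3 alone was called without clr4D-labelled replicate 1, clr4D-labelled replicate 2 or wt replicate 1, and none were without wt replicate 2. With DESeq2 size factors in edgeR arg3 alone was called. The call of arg41 at 24 h was also lost with library totals, upper quartile scaling, no filter on low counts and DESeq2.

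Over the mean of the 6 times 6 of 9 genes were lower in clr4D-labelled cells, where 14.2% of all tested genes were lower. The differences were -0.55 ± 0.08 for arg11, -0.48 ± 0.08 for arg4, -0.43 ± 0.06 for arg3, -0.42 ± 0.09 for arg12, -0.39 ± 0.06 for arg41 and -0.31 ± 0.11 for arg7. The call of arg7 (edgeR, adjusted p = 0.0363) was lost in 14 of the 24 fits that each left out 1 library, the others in none. In the same comparison 37 of 57 genes that make other amino acids were lower and 1 was higher. Of 29 other genes around arginine, 15 were lower and 1 was higher. A test of whether the course over time differed between strains called arg11 (edgeR, adjusted p = 0.00601), arg4 (edgeR, adjusted p = 0.0194) and arg12 (edgeR, adjusted p = 0.0354), where 6.87% of all tested genes were called. This test compares changes from 0 h, which the choice of the genes used, so its p-values may not be free of that choice. Leaving out each of the 24 libraries in turn kept the course call of arg11 in 24 fits, of arg4 in 21 and of arg12 in 6. The call of arg4 was lost without clr4D-labelled replicate 1 or either wt replicate of 10 h.

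**Figure D3:**
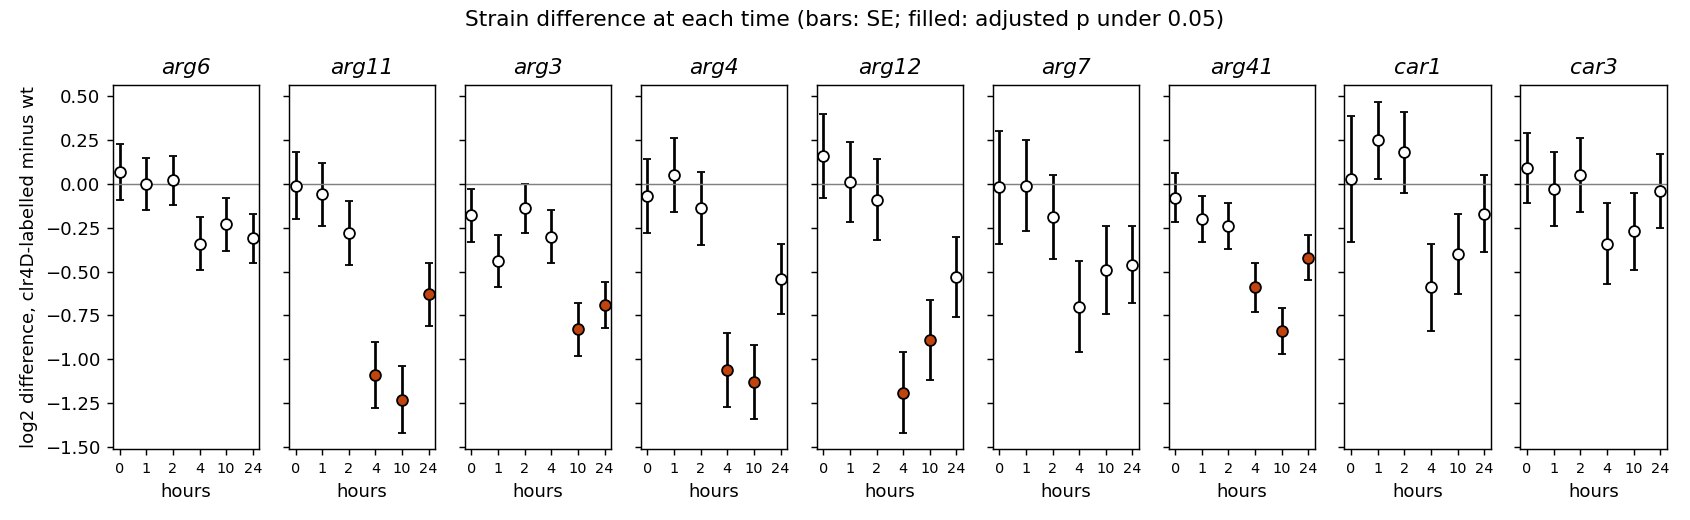
Log2 difference in level between clr4D-labelled and wt cells (clr4D-labelled minus wt, vertical axis) at each of 6 times for the 9 arginine genes, with bars of 1 SE from a fit to all 24 libraries. Filled points passed an adjusted p under 0.05. All points at 0 h are open, and filled points, all below 0, appear only at 4, 10 and 24 h in arg11, arg3, arg4, arg12 and arg41.

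Other genes of amino acid synthesis were also lower in clr4D-labelled cells, 37 of the 57 listed over the mean of the 6 times. Of 57 genes that make other amino acids, 25 were lower and 0 higher at 4 h, 27 and 0 at 10 h, and 8 and 0 at 24 h, where 9.82%, 677 of 5664 and 3.16% of all tested genes were lower. The 4 h count was far smaller without wt replicate 2. The median log2 difference was then -0.28 for the 57 genes and -0.41 for the 9 arginine genes. Leaving out any other library of that time was not examined for the 57 genes. With all libraries the median log2 differences of the 57 genes were -0.54, -0.53 and -0.30, beside -0.59, -0.83 and -0.46 for the 9 arginine genes and -0.03, -0.02 and -0.03 for all tested genes, at 4, 10 and 24 h. Whether arginine genes differ more than these was not tested.

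Over time, by contrast, the arginine genes were picked for not following those genes, and the following values restate that choice. The median log2 change from 0 h of the 9 genes was 0.78 at 1 h and 0.17 at 24 h in clr4D-labelled cells, and 0.79 and 0.69 in wt cells at these times. For the 57 genes it was -1.29 and -1.52 in clr4D-labelled cells, and -1.28 and -1.26 in wt cells. At 1 h 46 of the 57 were lower and 1 higher in clr4D-labelled cells, where 25.8% of all tested genes were lower and 26.4% higher, and 48 and 1 in wt cells, where 26.9% were lower and 26.5% higher. At 24 h 50 were lower and 1 higher in clr4D-labelled cells, where 29.3% of all tested genes were lower and 25.4% higher, and 47 and 3 in wt cells, where 28.6% were lower and 23.7% higher. Among the deepest falls at 24 h were met17 and met26 of methionine synthesis, at log2 -5.82 ± 0.28 and -3.61 ± 0.29 in clr4D-labelled cells and -5.29 ± 0.28 and -3.11 ± 0.28 in wt cells. The serine synthesis gene ser3 changed by -3.30 ± 0.25 in clr4D-labelled cells and -3.56 ± 0.25 in wt cells. The 3 that were higher in wt cells at 24 h were cys12 (0.67 ± 0.20), met3 (0.62 ± 0.14) and shm2 (0.37 ± 0.14), of which met3 is annotated as cystathionine gamma-synthase, a step towards methionine, and shm2 interconverts serine and glycine.

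**Figure D4:**
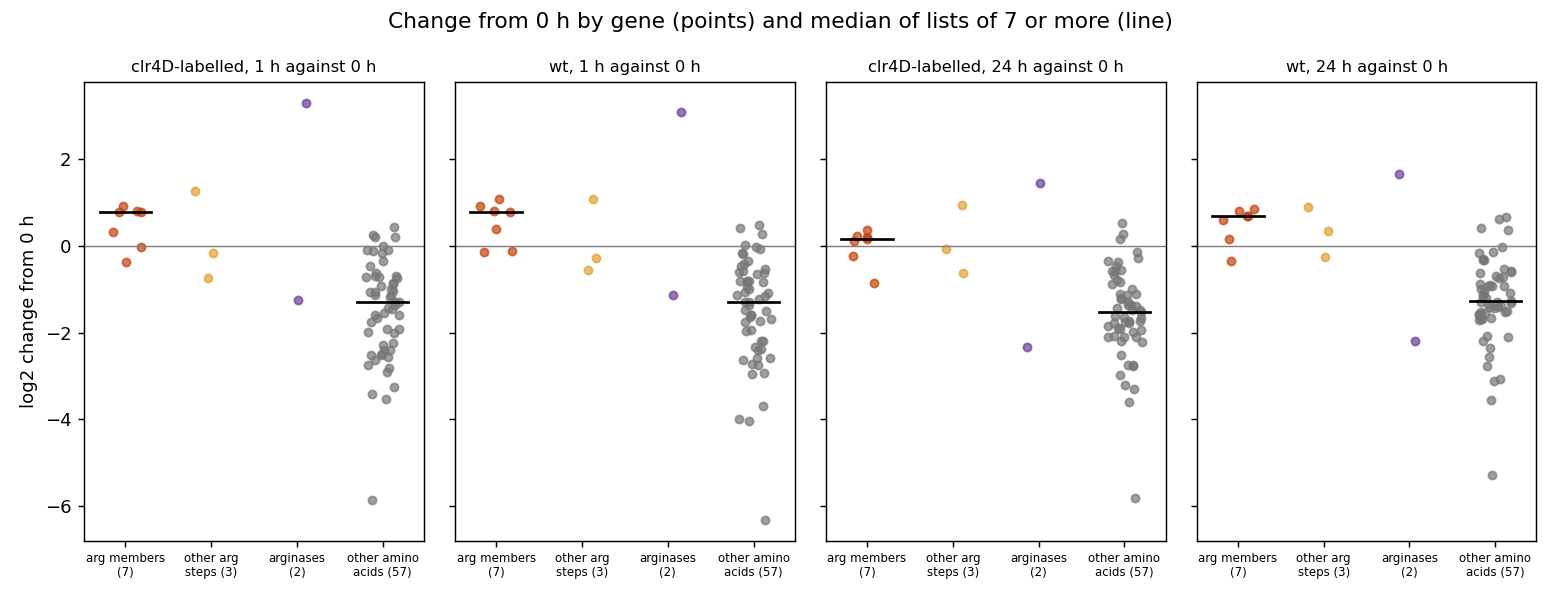
Log2 change from 0 h (vertical axis) at 1 h and 24 h in clr4D-labelled and wt cells for the 7 arg genes described here, 3 other arginine synthesis genes (arg1, arg5, aga1), the 2 arginase genes and 57 genes of other amino acid synthesis. Points are genes and black lines are medians of the lists of 7 and 57 genes. Most grey points lie below 0, with medians from -1.52 to -1.26, while most of the 7 arg genes lie above 0 at 1 h in both strains.

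The 3 other genes of arginine synthesis did not follow a common course. Aga1, which passes the acetyl group on from ornithine, was higher at 24 h than at 0 h by 0.96 ± 0.21 in clr4D-labelled cells (edgeR, adjusted p = 0.000409) and by 0.91 ± 0.20 in wt cells (edgeR, adjusted p = 0.000465). Arg5, the small subunit that works with Arg4, was 1.14 ± 0.20 lower in clr4D-labelled cells at 4 h (edgeR, adjusted p = 0.000491) and 1.05 ± 0.20 lower at 10 h (edgeR, adjusted p = 0.000327). Without wt replicate 2 of 4 h the arg5 difference at that time was -0.68 and the arg1 difference -0.70. Arg1, acetylornithine aminotransferase, was 0.92 ± 0.16 and 1.01 ± 0.16 lower in clr4D-labelled cells at 4 h and 10 h, and below its 0 h level at each of the 5 later times in that strain. Aga1 passed no test between strains.

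Genes around arginine were grouped by what they handle, 29 in all with the 3 above, and a member is called higher or lower below only where it passed an adjusted p under 0.05 in edgeR. At 1 h 13 were higher and 8 lower than at 0 h in clr4D-labelled cells, and 13 and 7 in wt cells. Of all tested genes 26.4% were higher and 25.8% lower in clr4D-labelled cells, and 26.5% and 26.9% in wt cells, so the share of lower genes in the list was near that of all genes. Between strains 13 were lower in clr4D-labelled cells and 0 higher at 4 h, 13 and 1 at 10 h, and 4 and 1 at 24 h. Of all 5664 tested genes 9.82% were lower at 4 h, 677 were at 10 h and 3.16% were at 24 h. Without wt replicate 2 of 4 h, 8 of the 29 were lower and 0 higher at that time, where 2.96% of all genes then tested were lower. The gene higher at 10 h and 24 h was sib2, which diverts ornithine to iron-binding siderophores (0.70 ± 0.20 and 0.83 ± 0.20). Its call at 10 h was lost without clr4D-labelled replicate 1 (0.46; edgeR, adjusted p = 0.28) or wt replicate 2 (0.61; edgeR, adjusted p = 0.0586).

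Of 7 urea genes, 5 were higher at 1 h in both strains and 0 lower, where 26.4% of all tested genes were higher in clr4D-labelled cells and 26.5% in wt cells. Urease itself, ure2, was higher by 1.25 ± 0.18 in clr4D-labelled cells and 1.32 ± 0.18 in wt cells at 1 h, and its accessory gene ure7 by 1.26 ± 0.18 and 1.41 ± 0.18. The urea transporter SPAC869.03c had 901.9 and 1185 CPM in clr4D-labelled cells at 10 h, against 4521 and 3647 CPM in wt cells, and 2 or 3 reads in each 0 h library. Its strain difference was -1.97 ± 0.21 at 10 h and passed the test at each time from 1 h on. Ure2 was lower in clr4D-labelled cells by 0.83 ± 0.18 at 4 h and 0.84 ± 0.18 at 10 h, and without wt replicate 2 its difference at 4 h was -0.57 (edgeR, adjusted p = 0.0414).

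Genes of ornithine, proline and glutamate moved both ways at 1 h: of 10, 4 were higher and 4 lower in clr4D-labelled cells, and 4 higher and 3 lower in wt cells. With the shares of all tested genes given above, these counts say little of the group, and single genes are described. Car2, ornithine aminotransferase, which follows arginase, was lower at 1 h by 1.91 ± 0.21 in clr4D-labelled cells and 1.67 ± 0.21 in wt cells, and its strain difference passed the test at no time. The proline synthesis genes pro1 and pro3 were lower at 1 h by 1.30 ± 0.16 and 1.99 ± 0.18 in clr4D-labelled cells, and by 0.93 ± 0.14 and 1.62 ± 0.15 in wt cells. In contrast put1, proline dehydrogenase, was higher at 1 h by 1.37 ± 0.16 in clr4D-labelled cells and 1.51 ± 0.16 in wt cells. Spa1, antizyme, which restrains ornithine decarboxylase, was higher by 1.93 ± 0.19 and 1.93 ± 0.17, while ornithine decarboxylase itself, spe1, did not pass the test at 1 h (-0.32 ± 0.16 and -0.20 ± 0.16).

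Of 4 genes for transport of basic amino acids, 1 was higher and 2 were lower at 1 h in each strain, too few to set against the share of all tested genes. Cat1, the plasma membrane carrier of arginine and lysine, was lower at 1 h by 1.64 ± 0.25 in clr4D-labelled cells and 1.55 ± 0.22 in wt cells. The vacuolar carrier SPAC2E12.03c was higher at 1 h by 1.98 ± 0.24 in clr4D-labelled cells and 2.18 ± 0.23 in wt cells. The amino acid permease gene aat1 showed the strongest evidence of a different course in this list (edgeR, adjusted p = 2.19e-05), with a strain difference of -1.72 ± 0.21 at 10 h. Of the 4 genes of nitrogen entry, gln1, glutamine synthetase, was 1.85 ± 0.32 lower in clr4D-labelled cells at 4 h and 1.25 ± 0.31 lower at 10 h. Without wt replicate 2 the gln1 difference at 4 h was -0.96, and without clr4D-labelled replicate 1 its call at 10 h was lost (edgeR, adjusted p = 0.0965).

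For each of the 9 genes the 3 genes with the most similar course were found among 4541 protein-coding genes with at least 20 CPM on average, by the mean absolute difference of centred log2 levels over the 12 groups. The nearest to arg4 was arg5, the gene for the other subunit of the same enzyme, at 0.109 log2 units, where the median candidate was at 0.457. The nearest to arg41 and to arg11 was SPAP11E10.01, annotated as of the ornithine cyclodeaminase family, at 0.098 and 0.133. For arg12 the nearest were SPAC922.04 (0.124), SPAP11E10.01 (0.141) and arg7 (0.146), and for arg3 ura2, a pyrimidine synthesis gene, at 0.118. Its neighbour arg11 was at 0.355 from arg3, close to the median candidate of 0.377. The nearest to car1 was the purine transporter gene SPAC29B12.14c at 0.200, the nearest to car3 was nrs1, asparaginyl-tRNA synthetase, at 0.138, and car1 and car3 were 1.061 apart. For arg6 the nearest was the casein kinase gene cki1 at 0.071 and for arg7 the uncharacterized gene SPAC6F6.13c at 0.082. Likeness of course over groups that share libraries is a description and was not tested.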

How the data were processed

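Strand-specific RNA-seq libraries were made from total RNA after removal of ribosomal RNA, per the labels' protocols. The deposited files hold counts of reads per gene for each library, which the authors made with TopHat2 2.0.8 and HTSeq 0.6.1 on the genome build ASM294v2, per the submitters' processing notes; the strand setting of the counting is not given in the sources used here. Lines that name no gene were left out of the library sizes; reads without a unique position came to 5.425% to 12.37% of the reads. Names and neighbours of genes came from a RefSeq annotation of a later build, so no coordinates or sequences are given.

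Counts were tested in R 4.3.3 with the quasi-likelihood test of edgeR 4.0.16 (limma 3.58.1), with TMM scaling, filtering by expression (5664 of 6877 genes kept) and 1 mean for each of 12 groups over all 24 libraries (12 residual degrees of freedom). P-values were adjusted over all tested genes, and an adjusted p under 0.05 was called. In simulated counts for the 24 h strain comparison 94 of 100 genes with a 2-fold and 100 of 100 with a 4-fold change were recovered. The counts were drawn from the fitted model with its trended spread, and only genes above a floor of fitted reads were changed. Spread particular to a gene or library was thus absent. Changes under 2-fold, the size of all member differences between strains at 24 h, were not simulated. Likeness used log2 CPM with a prior count of 2. The members, the gene lists and the rule for named genes (all 9 members, clr4, any of the 29 pathway genes, the 3 largest called rises and falls among the 57 genes in wt at 24 h, and the 3 closest courses per member) were chosen with earlier results of these data known. Alternatives were DESeq2 1.42.0, its size factors in edgeR, library totals, upper quartile scaling, no expression filter, a term for replicate number, a fit to the compared groups alone, and leaving out each replicate.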

Additional observations from a re-analysis of the deposited data

Results flagged for a closer look

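Results are listed here where the strains differed in their course over time by a test, or where they moved opposite ways from 0 h in both libraries. The course test (edgeR, Benjamini-Hochberg adjustment) gave an adjusted p of 0.00601 for arg11, 0.0194 for arg4 and 0.0354 for arg12. For these members it compares changes from 0 h, which their choice used. Among the other pathway genes it gave 2.19e-05 for aat1, 0.0142 for arg1, 0.0145 for the urea transporter SPAC869.03c and 0.0349 for arg5.

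Opposite moves from 0 h were seen at 10 h in 6 genes, arg4, arg6, arg12, pro2, shm2 and gln1. Only the 9 members, the 29 pathway genes and the genes named among the 57 were searched. The share of all tested genes that moved so was not counted, so this count has nothing to be set against. The log2 change of arg4 was -0.52 ± 0.21 (SE) in clr4D-labelled cells and 0.55 ± 0.21 in wt cells, and of arg12 -0.41 ± 0.23 and 0.63 ± 0.23. For arg6 it was -0.24 ± 0.16 and 0.07 ± 0.15, the wt change being smaller than its SE. The change of pro2, of proline synthesis, was -0.35 in clr4D-labelled cells and 0.37 in wt cells, and of shm2, serine hydroxymethyltransferase, -0.34 and 0.32. The glutamine synthetase gene gln1 moved by -0.59 in clr4D-labelled cells and 1.36 in wt cells at 4 h, and by -0.94 and 0.42 at 10 h. Without wt replicate 2 the wt change of gln1 at 4 h was 0.49. With library totals as the scaling the clr4D-labelled changes at 10 h were 0.07 for arg4, 0.19 for arg12, 0.33 for arg6, 0.22 for pro2 and 0.24 for shm2, no longer opposite to wt cells, while gln1 stayed at -0.31 in clr4D-labelled cells, against 0.88 in wt cells. Whether these changes differ at the single time was not tested as a difference of changes.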

How the results depend on the processing

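Of the counts over the 9 genes, 0 at 0, 1 and 2 h held under every alternative run. With only the compared groups fitted the count at 4 h was 0 (4 in the fit to all libraries) and at 24 h 5 (3 in the fit to all libraries), and with DESeq2 size factors in edgeR it was 1 at 24 h. Without single libraries the counts ranged from 3 to 8 at 4 h, 4 to 5 at 10 h, 0 to 1 at 24 h, 5 to 8 over the mean of the times and 1 to 4 for the course. Library totals moved the median difference of all genes by 0.291 at 4 h and by up to 0.594 against 0 h, and turned the sign of 15 of 90 described changes of the members from 0 h, among them arg11 in clr4D-labelled cells at 10 h, arg6 in clr4D-labelled cells from 4 h on and arg3 in wt cells at 24 h. They also turned clr4D-labelled changes at 24 h to 0.54 for arg5 (edgeR, adjusted p = 0.0077), 0.15 for spe1, 0.0738 for gdh2 and 0.46 for shm2. The cause was not tested. The counts of all genes called moved to 92 at 4 h (850 in the fit to all libraries), 861 at 24 h (498) and 64 at 1 h (38) with only the compared groups, and to 8 at 0 h (13) with DESeq2. Without single libraries they ranged from 0 to 8 at 0 h, 19 to 40 at 1 h, 52 to 75 at 2 h (88), 261 to 1325 at 4 h, 713 to 1092 at 10 h (1354), 199 to 347 at 24 h and 191 to 1148 for the course (389). The split into higher and lower genes was 294 and 556 at 4 h, 565 and 185 with library totals and 367 and 400 with upper quartile scaling. At 24 h it was 319 and 179, 321 and 54 with library totals, 351 and 106 with DESeq2 size factors and 363 and 108 with upper quartile scaling. At 10 h it was 677 and 677, and 727 and 461 with library totals; over the mean of the times 583 and 806, 791 and 334 with library totals and 731 and 537 with upper quartile scaling. With the replicate number as a block the counts stayed at 4, 5 and 3 at 4, 10 and 24 h, 6 over the mean and 3 for the course; the correlation of deviations of same-numbered libraries was -0.04 to 0.22 at the same time, so the numbers were not taken as pairs.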
